A study of Macrobrachium rosenbergii with 9 samples.

Results

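In adult Macrobrachium rosenbergii, the giant freshwater prawn, 58 of 21071 measured transcripts were abundant in ovary, present at a low level in testis and nearly missing from the androgenic gland. They were chosen by their own values in all 9 libraries. Each had at least 50 CPM (counts scaled to a library total of 1000000) in each ovary library and at least 2 CPM in each testis library. Its lowest ovary CPM was at least 4 times its highest testis CPM, and it had at most 1 CPM in each androgenic gland library. That they were higher in ovary is therefore fixed by the choice, and the tissue levels below are a description with no test.

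Ovary and testis both hold germ cells that go through meiosis, together with the somatic cells that nurse them. A growing oocyte stores yolk and RNA for the embryo, whereas sperm carry little cytoplasm. The androgenic gland, a male endocrine organ beside the sperm duct, holds no germ cells and secretes the hormone that drives male differentiation in decapods.

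The 3 groups were testis and androgenic gland of adult males and ovary of adult females, all of the strain labelled CMr1, with 3 libraries each. The study searched gonad RNA for transcription factors tied to sex determination. The labels give neither the animals behind the libraries nor the stage of the ovaries, so the spread given here is that between libraries and may be technical. Library totals lay between 7142794 and 11231573 estimated counts. Across all transcripts tested, testis 2 stood apart from the other testis libraries, with correlations of log2 CPM of 0.824 and 0.854 to them against 0.933 between testis 1 and 3. The IDs carry no gene name, 0 of them matched the 31758 genes of the RefSeq table, and no sequence came with them. No role is therefore given to any transcript, and the tissues could not be checked against marker genes. Transcripts are called by the word Female or Male in their ID and by their deposited length. Several can come from 1 gene, so the counts are of transcripts, not genes. The tissues were sampled in bulk, where fewer cells of a type and less RNA per cell cannot be told apart.

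The 58 transcripts took a steady share of ovary RNA. They held 4.39%, 4.36% and 4.52% of the counts in ovary 1 to 3, a mean of 4.42% ± 0.0872 (SD, n = 3). In testis 1 to 3 they held 0.0604%, 0.0563% and 0.0789%, a mean of 0.0652% ± 0.012 (SD, n = 3). In the androgenic gland libraries they held 0.000635%, 0.000834% and 0.00109%, which rests on 70.96, 86.82 and 120.91 estimated counts in all. The summed ovary level was 67.8 times the summed testis level. For single transcripts the ratio of mean ovary to mean testis CPM ran from 7.70 to 1065, with a median of 30.8.

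**Figure D1:**
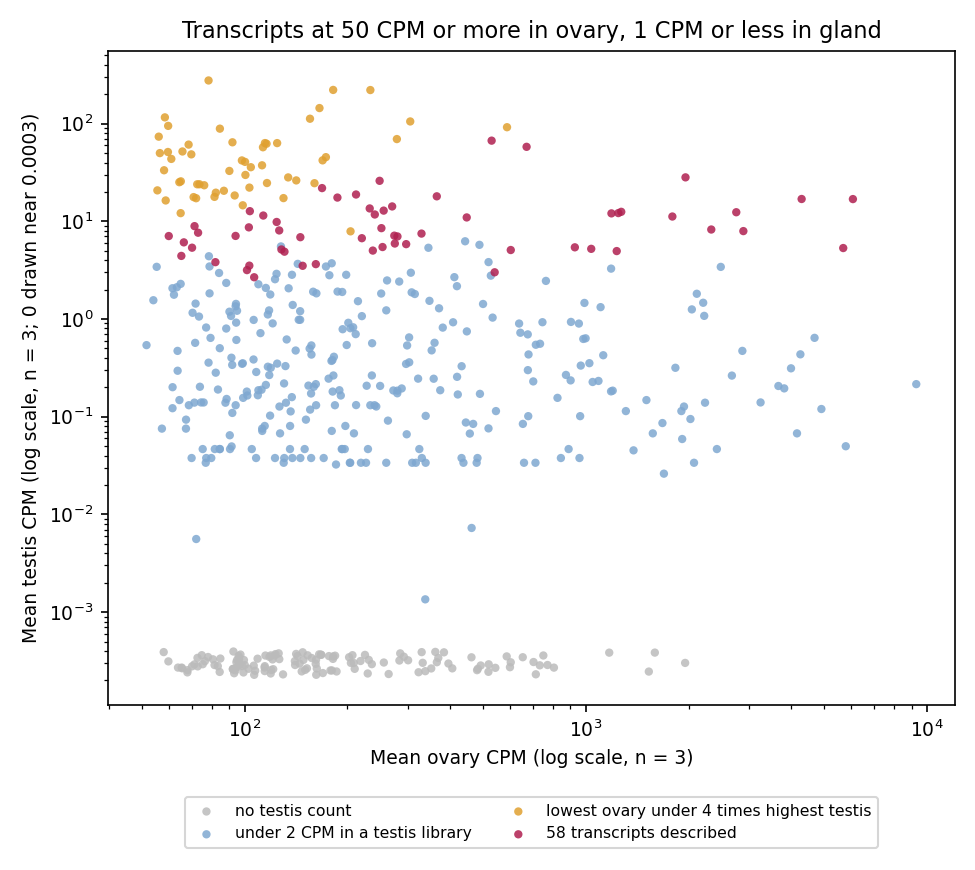
Mean testis CPM against mean ovary CPM, both on log scales (n = 3 libraries each), for the 543 transcripts with at least 50 CPM in each ovary and at most 1 CPM in each gland library. The 58 transcripts described (red) span 59.9 to 6059 CPM in ovary but lie in a band of 2.68 to 67.0 CPM in testis; the 133 transcripts with no testis count are drawn as a band near 0.0003.

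All 58 had enough counts to enter the fit across 17043 transcripts. All 58 were called higher in ovary than testis by edgeR's quasi-likelihood test (adjusted p under 0.05 and log2 fold change of at least 1), where 26.5% of all tested transcripts were. Their median log2 fold change was 4.73, with a range of 2.76 to 9.86. Over androgenic gland 58 were called higher in ovary, against 39.4% of all tested. Against androgenic gland 57 were called higher in testis, against 26.9% of all tested. The transcript not called there was a Female transcript of 1045 bases. It had 3.89, 3.84 and 2.78 CPM in testis 1 to 3 and 0, 0 and 0.943 CPM in androgenic gland 1 to 3, so its gland signal sat in 1 library. The choice used these same contrasts, so the counts describe the 58 and nothing is read from them.

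The most abundant of the 58 in ovary was transcript_HQ_Female_transcript2206/f6p0/2698, of 2698 bases. It stood at 4773, 6355 and 7050 CPM in ovary 1 to 3, at 13.6, 9.22 and 27.9 CPM in testis 1 to 3, and at 0.179, 0.576 and 0.630 CPM in androgenic gland 1 to 3. Its testis values differed more among themselves than its ovary values did, with testis 3 about 3.02 times testis 2. The second, transcript_HQ_Female_transcript83/f2p0/4107, of 4107 bases, had 6145, 4917 and 5967 CPM in ovary, 5.55, 3.85 and 6.58 CPM in testis and 0, 0.576 and 0.270 CPM in gland. It had the largest ratio of the 58, its lowest ovary library being 747 times its highest testis library. The next largest such ratio was 257, for a Female transcript of 3302 bases with a mean of 2893 ± 910 CPM in ovary and 7.94 ± 0.864 CPM in testis (SD, n = 3 each). With the TMM-scaled CPM used further below, neither the 2698-base nor the 4107-base transcript met the gland limit. Each had 0.576 CPM in androgenic gland 2, which that scaling divides by 0.380.

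A few transcripts made up most of the ovary signal. The first 2 held 26.5% of the summed ovary CPM of the 58, and the first 6 held 54.3%. The 13 transcripts with a mean of at least 1000 CPM in ovary held 76.3% of the summed ovary CPM but 23.6% of the summed testis CPM. Per length the 2698-base transcript was also first, at 3262 TPM (counts per base of length, scaled to a sum of 1000000), followed by the 4107-base transcript at 2015 TPM in ovary.

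The 2 highest testis levels belonged to transcripts with mean ovary levels of 529 and 670 CPM. The median ovary level of the 58 was 250 CPM and the upper quartile 653 CPM. A Female transcript of 3366 bases had 47.5, 70.8 and 82.6 CPM in testis 1 to 3, 473, 509 and 605 CPM in ovary 1 to 3, and 1 count in all over the gland libraries. A Female transcript of 3496 bases had 46.5, 57.7 and 69.6 CPM in testis, 699, 633 and 677 CPM in ovary, and 4 counts in gland. In both, testis 2 lay between testis 1 and 3 on plain CPM but was the highest testis library with TMM-scaled CPM. Every ovary library was well above every testis library. These 2 transcripts held 19.2% of the summed testis CPM of the 58. Per length they were also the first 2 in testis, at 25.7 ± 6.79 and 21.5 ± 4.53 TPM (SD, n = 3). Only 5 of the 58 had a mean of at least 20 CPM in testis, while 10 were under 5 CPM.

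Across the 58, the ovary level changed far more than the testis level. Mean ovary CPM ran from 59.9 to 6059, with quartiles of 125 and 653. Mean testis CPM ran from 2.68 to 67.0, with quartiles of 5.34 and 12.5. The choice bounded testis CPM from both sides but set no upper limit on ovary CPM, so it shaped this difference in range. Ovary and testis levels were weakly related, with a Spearman correlation of 0.322 across the 58 transcripts. The ratio of the levels followed the ovary level, at 0.755, which shares the ovary value on both axes. The ratio ran against the testis level, at -0.299. These correlations are across transcripts that share the same libraries, and the limits of the choice shape all of them.

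**Figure D2:**
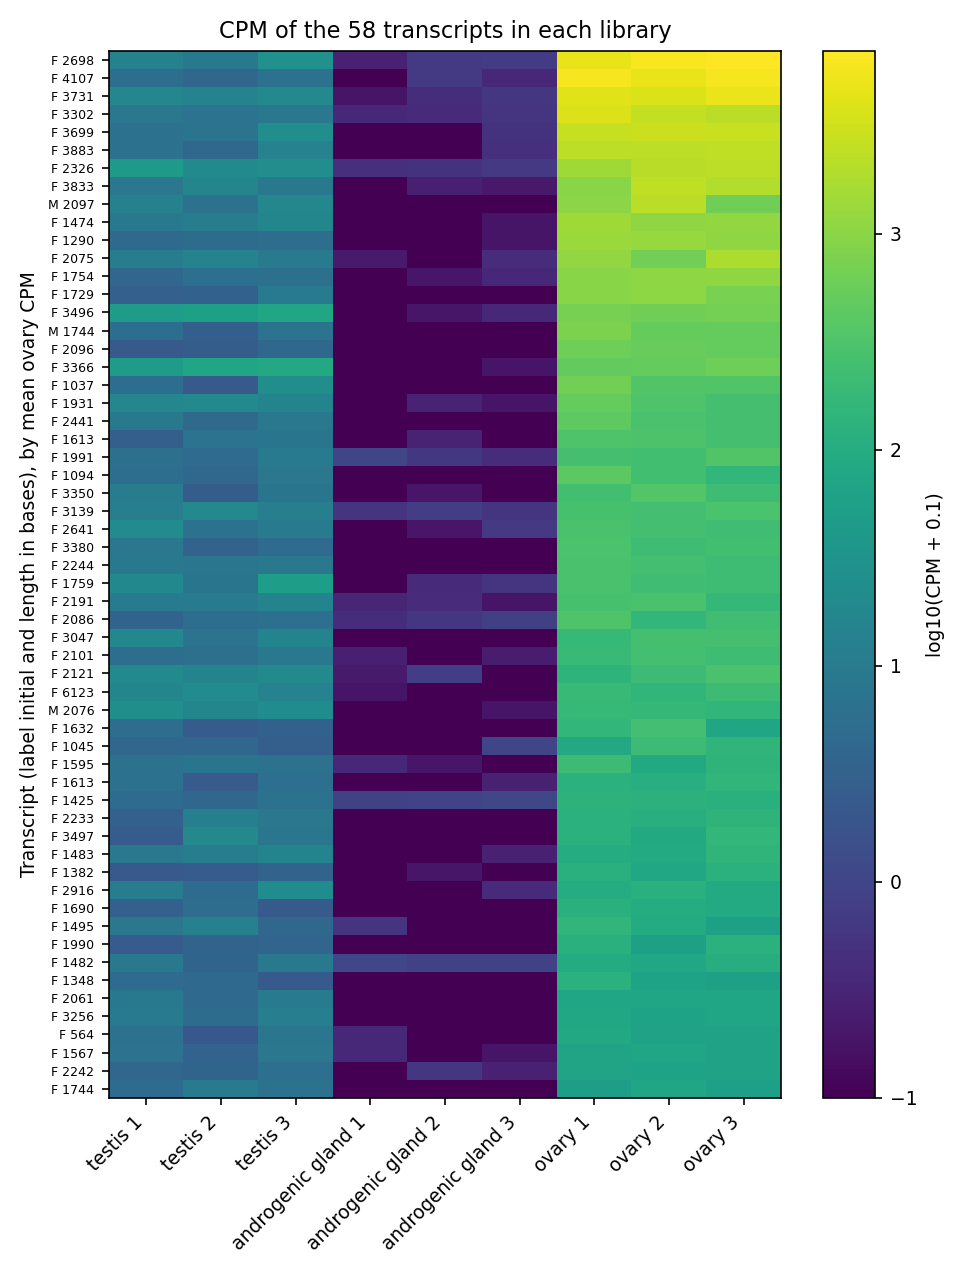
CPM of each of the 58 transcripts (rows, named by the initial of Female or Male and the length in bases, sorted by mean ovary CPM) in each of the 9 libraries (columns), coloured by log10(CPM + 0.1). Ovary columns fall from 6059 to 59.9 mean CPM down the rows, testis columns stay between 2.68 and 67.0 mean CPM, and 19 rows are at 0 in all 3 gland libraries.

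The gland signal was small, at 0 to 29 counts per transcript over the 3 libraries, with a median of 2.5. Of the 58 transcripts 19 had no count in any gland library, which allows up to 0.0917 CPM for each over the tissue (3 counts of the summed totals, counting error only). Another 16 had a count in 1 gland library, 13 in 2 and 10 in all 3. Counts were present for 18, 23 and 31 of the 58 in androgenic gland 1 to 3, and the largest count in 1 library was 11. The gland level was highest in a Female transcript of 1425 bases, with 0.805, 0.865 and 0.989 CPM in gland, 4.76, 4.26 and 6.44 CPM in testis and 135, 132 and 117 CPM in ovary. It lay just inside the limit of 1 CPM. Just outside it lay a Male transcript of 1611 bases, with 0.689, 0.332 and 1.00 CPM in gland.

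The other limits also cut through a continuum. At the ratio of 4, a Female transcript of 2916 bases lay just inside, with 90.6 CPM in its lowest ovary and 22.3 CPM in its highest testis library, a ratio of 4.07. A Female transcript of 3100 bases lay just outside, at 88.0 and 22.3 CPM, a ratio of 3.95. At the testis limit, a Female transcript of 564 bases was inside with 2.10 CPM in its lowest testis library. A Female transcript of 4317 bases was outside with 1.93, 4.97 and 3.36 CPM in testis 1 to 3, and had 2476, 2157 and 2819 CPM in ovary. At the ovary limit, the nearest transcripts stood at 52.1 CPM in the lowest ovary library inside and 49.6 CPM outside. The depth behind the testis limit was small: 2 CPM is 17.65, 19.74 and 14.29 counts in testis 1 to 3, and the smallest testis count of the 58 in 1 library was 16.

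The 58 were then set beside the other 485 transcripts that met the same ovary and gland limits. Of these 133 had no testis count at all, 298 had some testis count but under 2 CPM in at least 1 testis library, and 54 reached 2 CPM in each testis library but had a lowest ovary CPM under 4 times their highest testis CPM. The 58 were thus a minority of the ovary transcripts that the gland lacked. Summed testis levels of the 58 were 1.47% of their summed ovary levels. In the 298 transcripts below the testis limit the same share was 0.131%, although they held 16.5% ± 0.871 of ovary counts (SD, n = 3).

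A testis level of 2 CPM is a smaller share of a high ovary level than of a low one, so the groups were also read within ranges of ovary level. Among the 56 transcripts with a mean of at least 1000 CPM in ovary, 13 were among the 58. Their testis mean was 0.0939% to 1.44% of their ovary mean, with a median of 0.449%. In the other 43 the median was 0.00656% and the highest 0.277%, so the ranges overlapped. From 300 to 1000 CPM there were 8 of 111, from 100 to 300 CPM 29 of 237, and below 100 CPM 8 of 139. The median testis level of the 58 was 12.1, 9.23, 7.13 and 6.58 CPM in these ranges from the highest to the lowest.

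Length and label were not used in the choice. The 58 transcripts were long, with a median of 2081 bases and a range of 564 to 6123. The median was 1649 bases over all tested transcripts, 1120 in the 133 with no testis count, 1361 in the 298 below the testis limit and 1979 in the 54 below the ratio limit. Of the 58, 32 (55.2%) had at least 2000 bases and 1 (1.72%) had under 1000. In the group with no testis count these shares were 14.3% and 42.1%, and over all tested 35.0% and 20.4%. The 58 also had the higher median length than the other transcripts at the same ovary and gland limits in each range of ovary level. The median length was 2698 bases for the 58 and 1412 for the others from 1000 CPM, 2014 and 1412 from 300 to 1000, 2076 and 1256 from 100 to 300, and 1656 and 1449 below 100. CPM is not per length, so a long transcript reaches 2 CPM at fewer molecules than a short one. With TPM in place of CPM, a setting added after the data were seen, the same limits gave 61 transcripts with a median of 1754 bases, 41 of them from the 58. Of these 61, 27 (44.3%) had at least 2000 bases and 10 (16.4%) under 1000, so short transcripts were far less rare on that scale. The median was 864 bases in the 201 transcripts with no testis count and 1143 in the 373 below the testis limit on that scale, with 60.7% and 41.0% under 1000 bases.

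**Figure D3:**
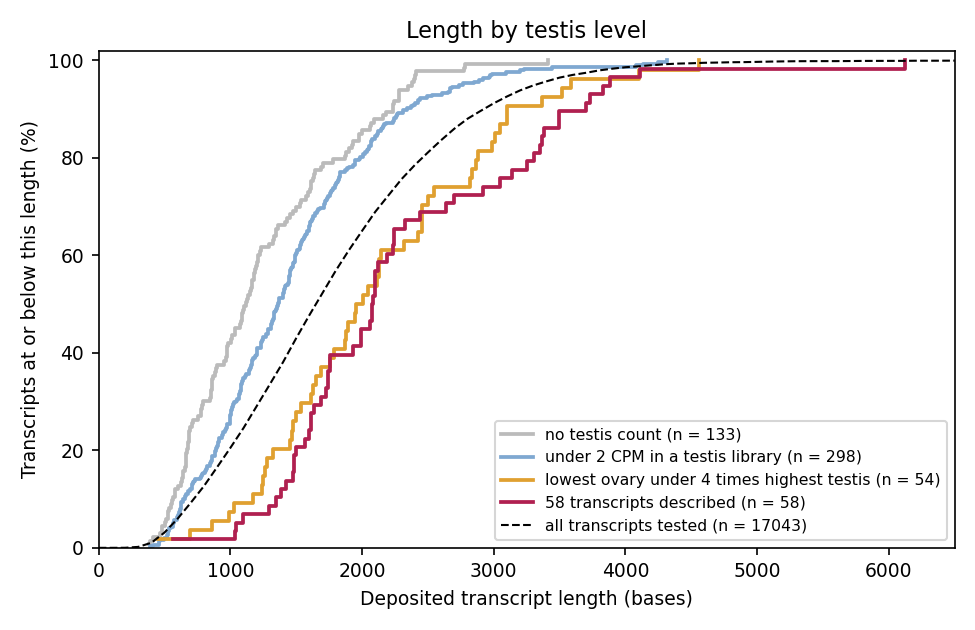
Share of transcripts (%) at or below each deposited length (bases) for the 58 transcripts, the 3 other groups at the same ovary and gland limits, and all 17043 tested transcripts. The 58 (red) lie farthest right through most of the range, with a median of 2081 bases against 1120 in the group with no testis count.

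Of the 58 transcripts 55 carried the word Female, 94.8% with a 95% Wilson interval of 85.9% to 98.2%, against 69.5% of all tested. The share was 100% in the 133 transcripts with no testis count, 98.3% in the 298 below the testis limit and 75.9% in the 54 below the ratio limit. The interval covers counting error only. What the words stand for is not stated with the data, so they are no independent sign of sex or tissue. The 3 transcripts with the word Male were at very different levels. One of 2097 bases had 1005, 2178 and 625 CPM in ovary 1 to 3, 13.7, 6.45 and 17.4 CPM in testis and no gland count, and had the largest coefficient of variation over the ovary libraries, 63.8%. One of 1744 bases had 786, 507 and 513 CPM in ovary, 5.55, 2.87 and 6.83 CPM in testis and no gland count. One of 2076 bases had 176, 172 and 158 CPM in ovary, 26.3, 16.4 and 23.0 CPM in testis and 1 gland count, and its ratio of means, 7.70, was the lowest of the 58. All 3 were lowest in testis 2 among the testis libraries.

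The IDs have the form that PacBio's Iso-Seq software gives to clustered long reads, in which the number after f counts full-length reads. On that reading the 58 rested on 2 to 104 full-length reads, with a median of 4 against 2 over all tested, 5 in each group with less testis signal and 3 in the 54. All carried the mark HQ. The number of full-length reads followed the ovary level only loosely, with a Spearman correlation of 0.211 across the 58. The transcript with the most, 104, was a Female transcript of 2061 bases with only 73.9, 73.3 and 71.9 CPM in ovary and 9.06, 4.50 and 9.39 CPM in testis. The 4107-base transcript, at 4917 CPM in its lowest ovary library, had 2. The deposited length equalled that in the ID in 39 of the 58 and differed by at most 6 bases in the others. Counts were whole numbers in all 9 libraries, within 1e-06, for 18 of the 58 (31.0%), against 33.6% of all tested. In the other 40 at least 1 count had decimals, so reads were shared out with other transcripts.

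Within a tissue, the 58 were steadier in ovary than in testis. The coefficient of variation (SD over mean, n = 3) had a median of 16.2% in ovary and 36.8% in testis, and was larger in testis for 41 of the 58. The testis values rest on far fewer counts, with a median of 195 over the 3 libraries against 7806 in ovary. The median was 12.3% in ovary for the other 2837 tested transcripts with at least 50 CPM in each ovary library. In testis it was 29.7% for the 8583 other tested transcripts with at least 2 CPM in each testis library and a mean in the same range. The steadiest in ovary was the 2061-base transcript with 104 full-length reads, at 1.38%, and the most variable the 2097-base Male transcript, at 63.8%.

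Testis 2 was the lowest testis library for 31 of the 58, testis 1 for 19 and testis 3 for 8. The ratio of testis 2 to the mean of testis 1 and 3 had a median of 0.760 in the 58, against 0.856 over all tested transcripts and 0.892 in the 8583 of like testis level. A low testis 2 was not particular to the 58. The median was 0.574 in the 54 below the ratio limit. It was 0.306 in the 298 below the testis limit, over the 268 with a count in testis 1 or 3. In the 182 transcripts described further below, which failed only the gland limit, it was 0.838. The ratio was below 0.5 in 18 of the 58 (31.0%), against 23.5% of all tested and 13.4% of the 8583. It was above 2 in 4. The lowest ratio, 0.138, belonged to a Female transcript of 1037 bases, with 5.55, 2.13 and 25.2 CPM in testis 1 to 3 and 666, 336 and 341 CPM in ovary 1 to 3. The highest, 3.64, belonged to a Female transcript of 3497 bases, with 2.50, 19.1 and 7.98 CPM in testis and 123, 88.5 and 160 CPM in ovary. In both, a single testis library carried most of the signal, and it was not the same library. Both had no gland count. These values of testis 2 are on plain CPM. With TMM-scaled CPM the median ratio of testis 2 to the mean of testis 1 and 3 was higher, at 0.845 in the 58 and 0.943 over all tested.

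Testis 3 was the highest testis library for 34 of the 58 (58.6%), against 49.5% of all tested transcripts with a testis count. The share was 57.4% in the 54 below the ratio limit, 60.4% in the 182 above the gland limit and 48.3% in the 298 below the testis limit. The order of the testis libraries depended on the scaling. With TMM-scaled CPM testis 1, 2 and 3 were highest for 20, 18 and 20 of the 58, so the lead of testis 3 was gone. The 298 transcripts below the testis limit were also highest in testis 3, at a summed 310 CPM against 176 and 163 CPM in testis 1 and 2, where the 58 summed to 789, 604 and 563 CPM. Their part in the values of the 58 was not tested.

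**Figure D4:**
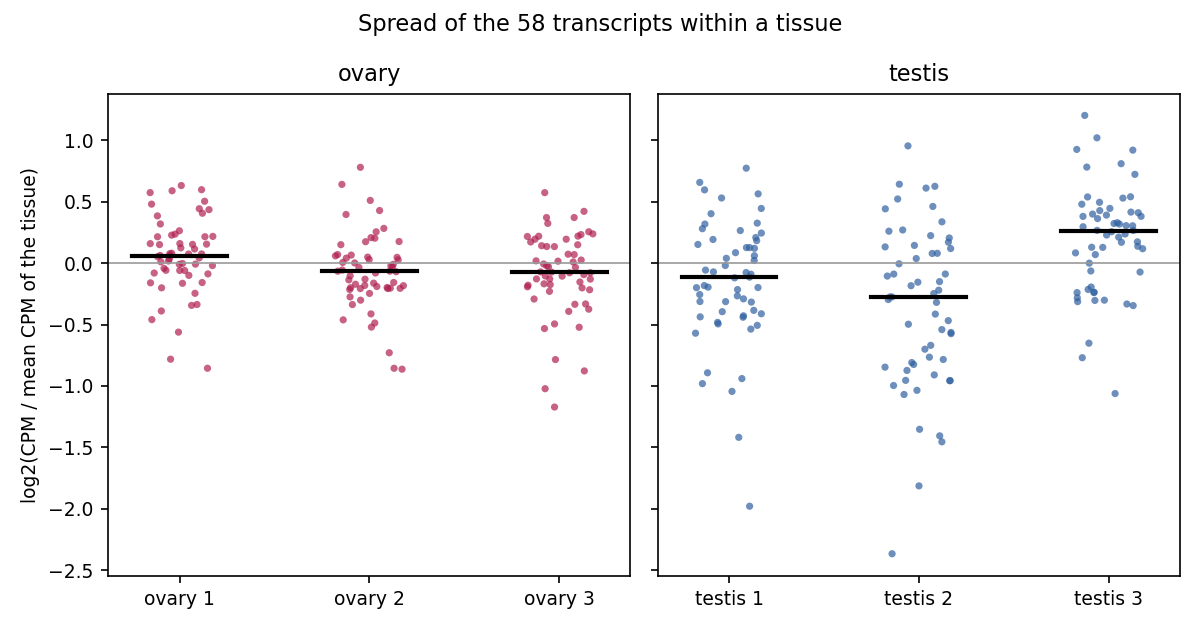
Each library's CPM over the mean CPM of its tissue (log2) for the 58 transcripts in ovary (left) and testis (right); points are transcripts and bars medians. Testis points spread more widely than ovary points, and the median is -0.28 in testis 2 and 0.26 in testis 3.

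The limit on the gland removed most of the transcripts that met the ovary and testis limits. A further 182 met those limits and had more than 1 CPM in at least 1 gland library. In them the median ratio of mean ovary to mean testis CPM was 9.65, against 30.8 in the 58, and the median testis level 16.2 CPM against 7.80. Their median length was 1974 bases and 77.5% carried the word Female. Their summed gland level was 4984 ± 1532 CPM against 4888 ± 717 CPM in testis (SD, n = 3 each), so on this scale their summed levels in the male organs differed by less than the spread between libraries. With TMM-scaled CPM, added after the data were seen, they were 9978 ± 1233 in gland and 3573 ± 115 in testis, a difference larger than that spread. The 58 summed to 8.52 ± 2.27 CPM in gland and 652 ± 120 CPM in testis, or 17.7 ± 5.06 and 475 ± 33.5 with TMM scaling.

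Membership depended on the scaling. With TMM-scaled CPM the same limits left 32 transcripts, all of them among the 58. That scaling divides gland libraries by 0.380 to 0.575, testis libraries by 1.27 to 1.55 and ovary libraries by 1.48 to 1.58. It raised gland levels and lowered testis and ovary levels, so the CPM limit of each tissue was harder to meet. The losses were not divided among the limits.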

How the data were processed

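The authors made 1 table, whose columns are read counts per the file headers and estimated counts by their decimals, that is, one read can be divided over transcripts. A length in bases stands beside them. Per the submitters' processing notes, Bowtie 0.12.2, DESeq 1.10.1 and the mouse build mm8 were named without roles; which tool counted, the strand setting and the transcript source were not given in the sources used here. Between 46.87% and 64.34% of values per library were whole numbers. Per the labels' protocols, libraries came from a directional Illumina kit.

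From the deposited counts CPM was computed on the column sums, and TPM from counts and lengths. For calls, counts were rounded, filtered with filterByExpr (minimum count 10, total 15) and tested in edgeR 4.0.16 (R 4.3.3) with TMM factors, a mean per tissue over all 9 libraries, 6 residual degrees of freedom, prior count 1 and Benjamini-Hochberg adjustment over 17043 transcripts; the procedure was tested on simulated data. DESeq2 1.42.0 was an alternative. Members and lists were chosen with earlier results of these data known. Of the members, those highest in ovary, in testis and in ratio, the extremes of testis 2, ovary spread, length and read support, and those nearest the limits were named; the 3 Male transcripts and those of highest gland level were named after their values were seen. Intervals and floors (3 counts) cover counting error only.

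Same-numbered libraries of testis and androgenic gland deviated together from their tissue means (correlations of 0.289 to 0.417 over 17043 transcripts). Those of ovary and the male tissues reached at most 0.00855. The labels do not say whether the numbers pair animals, and what the same-numbered male libraries share was not tested. The fit behind the calls left the numbers out, and the replicate block, an alternative, put them in.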

Additional observations from a re-analysis of the deposited data

How the results depend on the processing

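The same limits on TMM-scaled CPM gave 32 transcripts in place of 58, and a testis limit of 4 CPM gave 34. Limits at other values gave 40 to 82, and leaving out 1 library gave 59 to 74 (73 without testis 2). Each of the latter held all 58. That was fixed in advance, because the limits apply to each library and fewer libraries can only loosen them. The median ratio of mean ovary to mean testis CPM, 30.8, was 37.0 with TMM scaling, 19.8 with a least ratio of 2 and 43.1 with 8, and 24.2 to 33.0 without 1 library. The share of unscaled ovary counts was 4.42% for the 58. It was 2.68% for the 32 chosen with TMM scaling and 3.57% for those chosen with TPM. With a least ratio of 2 it was 4.68%, with 8 it was 4.21%, and without 1 library 4.45% to 4.90%. The median ratio and this share are over the transcripts that each setting chose, not over the same 58. Testis 2 was the highest testis library for 11 of 58, for 7 of 44 with a least ratio of 8, and for 11 to 27 without 1 library; the counts of 23 and 27 came without testis 1 and without testis 3, where 1 competitor fewer is compared. The median length (1754 to 2212 bases) and the share with the word Female (89.6% to 95.9%) stayed within their intervals in these settings. The interval of the median length was 1754 to 2242 bases, so the TPM value of 1754 lay at its lower end. The main median was 2081 bases, and that of all tested transcripts 1649. All 58 stayed called higher in ovary than in testis and in gland under the other scalings, no filter, DESeq2, the replicate block and each library left out. For testis over gland the count was 57 with the replicate block, 55 to 57 without 1 library and 58 with library size alone or DESeq2. The choice of the 58 used these same contrasts, so these counts could hardly change and nothing is read from their constancy. At 2 CPM in testis, 14.29 to 19.74 counts limit what can be told apart.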
